A study of Mus musculus with 12 samples.

Results

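The Argonaute and GW182 genes are the effectors of microRNA silencing, and they were followed here through 3 ORFtag screens in mouse embryonic stem cells. The members are Ago1, Ago2, Ago3, Ago4, Tnrc6a, Tnrc6b and Tnrc6c, taken by gene name, 7 of the 20409 genes in the deposited tables. They were chosen with earlier results of these data known. In ORFtag a retroviral cassette integrates across the genome with the PGK promoter, a NeoR gene, an IRES and a tag that ends in a splice donor, and splicing to the next acceptor downstream makes a fusion of the tag to an endogenous protein. Inverse PCR and sequencing gave the insertion sites in 12 libraries, 2 sorted and 2 unsorted for each screen. The screen for regulators that act after transcription (PTGR, post-transcriptional gene regulation) used the λN tag, which brings the fusion protein to boxB hairpins in a reporter mRNA. The activator and repressor screens used TetR with a nuclear localization signal, which brings it to TetO sites in DNA.

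All cells were diploid descendants of an originally haploid stem cell line, wild-type apart from the transgenes named here, and each reporter line was 1 clone. The PTGR line carried Puro-IRES-GFP-10xBoxB at a random site. To this line a retroviral CreERT2 transgene, a Cre recombinase switched on by 4-hydroxytamoxifen, had been added before a further round of cloning, a step the study's methods give for no TetR line. The activator line carried 7xTetO-pMYLPF-Puro-IRES-GFP, and the repressor line pEF1-BFP-7xTetO-pPGK-Puro-IRES-GFP, both at an expression-stable locus on chromosome 15. Sorted cells were GFP-positive in the activator screen and GFP-negative in the repressor screen. For PTGR, sorts for low GFP were followed by Cre-mediated loss of the boxB sites and a sort for cells in which GFP returned. Unsorted cells received the same cassettes. Ago2 and Tnrc6b lie on chromosome 15, as does the locus of the activator and repressor reporters.

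Argonaute proteins carry microRNAs and are guided by them to partly complementary sites in mRNAs. GW182 proteins, encoded in mammals by the Tnrc6 genes, bind Argonaute through glycine-tryptophan repeats, and through their C-terminal silencing region they recruit poly(A)-binding protein and the CCR4-NOT and PAN2-PAN3 deadenylases, which leads to translational repression and mRNA decay. Tethering either kind of protein to an mRNA is a long-used way to silence it without a microRNA. In embryonic stem cells, loss of microRNA processing impairs differentiation.

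An insertion was assigned to the nearest downstream exon on its own strand, first exons aside, and the exon decides where in the protein the tag can join. Some of the acceptors to which the insertions discussed here were assigned are shown, because a fusion would start at the acceptor that is used. Lower case marks the last 20 intron bases and capitals mark the first 10 exon bases, read along the gene on GRCm38, with the exon numbers of the deposited lists.
Tnrc6b exon 4, chr15:80784719-80784748, plus strand: tgtggtgcttgcctttgcagGTGGAACAGG
Tnrc6b exon 5, chr15:80858661-80858690, plus strand: catgtcatttctttttacagAGAGAAGGAG
Tnrc6b exon 15, chr15:80901864-80901893, plus strand: tccctctgtcttctggctagGTTTCTGCCT
Tnrc6b exon 22, chr15:80923438-80923467, plus strand: ttcctacgtttctcttacagCAAAGTTCCC
Tnrc6a exon 2, chr7:123124648-123124677, plus strand: gtttttgtttgctatttcagAGAATTGGAA
Tnrc6a exon 3, chr7:123143730-123143759, plus strand: attgcaactgtgtggttcagGGATTTAGTG
Tnrc6c exon 2, chr11:117700705-117700734, plus strand: gctccttaaatattcaatagGGTAAAAGAA
Ago1 exon 2, chr4:126463846-126463875, minus strand: tggcgtctttgtcttcacagCGGCAGGTGC
Ago2 exon 2, chr15:73146556-73146585, minus strand: gtctccctactgttttccagTTCTTGCTTC
Ago3 exon 13, chr4:126355156-126355185, minus strand: catttgcatttgttccatagCGGAAGTGAA
Ago4 exon 2, chr4:126526154-126526183, minus strand: atgtctttcaatctctttagGACCTCCAGC

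Counts are of unique positions at most 200 kb from the assigned exon. Their total in the PTGR screen was 60980 and 58560 in the sorted and 233799 and 54088 in the unsorted libraries. The sorted libraries of the other screens were smaller, between 14705 and 22266, and their unsorted libraries held between 174276 and 207613. Values are given as insertions per 10000 such positions. In the PTGR screen 5.92% of unsorted positions were also found in a sorted library. PTGR sorted replicate 1 shared 19.5% of its positions with unsorted replicate 1, and sorted replicate 2 shared 6.98% with unsorted replicate 2. With the unsorted library of the other number they shared 0.397% and 1.93%. Intervals and standard errors of counts cover counting error alone, since cells that divided before sorting are not independent events.

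The PTGR screen asked which tagged proteins lower the reporter when bound to its mRNA. All 3 GW182 genes and both Ago1 and Ago2 were enriched among sorted cells, while Ago3 and Ago4 were not called. Log2 odds ratios of the 5 ran from 2.18 for Tnrc6c to 4.34 for Tnrc6b, an order that depended on the background and on the distance allowed. Together the members took 532 of the 119540 sorted insertions, 0.445%, against 614 of the 1022126 in the background of all 6 unsorted libraries, 0.0601%. Each of the 9303 genes with at least 3 sorted insertions was tested by Fisher's exact test (one-sided, Benjamini-Hochberg adjustment). A gene was called where the log2 odds ratio reached 1 and the adjusted p was below 0.001. The test called 5 of the 7 members, and 0.666% of the genes tested (62). The minimum of 3 is set on sorted insertions and favours genes that are high there. It left 6 members, with a median log2 odds ratio of 2.80, beside a median of 0.14 over all genes tested.

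Tnrc6b, whose product is 1 of the 3 GW182 scaffolds (ENSMUSG00000047888, chr15:80711313-80941085, plus strand), had 102 and 99 insertions in the PTGR sorted libraries, 16.7 and 16.9 per 10000. The unsorted PTGR libraries held 41 and 15, or 1.75 and 2.77 per 10000, and the 4 unsorted TetR libraries 12, 8, 5 and 4, between 0.23 and 0.68. Both sorted libraries lay far above every unsorted one and beside each other. Both PTGR unsorted libraries also lay above all 4 TetR ones. The log2 odds ratio was 4.34 ± 0.19 (SE), and 4.33 and 4.35 with each sorted replicate alone. Against the unsorted libraries of its own screen it was 3.11, and against only the 4 TetR libraries, a comparison chosen after seeing the data, 5.41. In edgeR, which takes the spread between the 2 sorted and 2 unsorted libraries into account, the log2 fold change was 3.13 ± 0.36 (SE, adjusted p = 1.63e-15).

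Tnrc6c (ENSMUSG00000025571, chr11:117654289-117763439, plus strand), another GW182 scaffold, was the member with the most insertions in unsorted cells, 331 in all. It had 64 and 111 insertions in the PTGR sorted libraries, 10.5 and 19.0 per 10000. The unsorted PTGR libraries held 78 and 32 (3.34 and 5.92 per 10000) and the TetR unsorted libraries 47, 66, 46 and 62 (2.64 to 3.50). Sorted and unsorted libraries did not overlap, though the sorted replicates differed more than those of Tnrc6b. The log2 odds ratio was 2.18 ± 0.14 (SE), with 1.70 and 2.55 for the replicates. Counting only insertions within 50 kb of the assigned exon it was 3.75 ± 0.23 (SE). The edgeR change was 1.88 ± 0.33 (SE, adjusted p = 1.14e-06), and in DESeq2, with a change of 1.79, the adjusted p of 0.00341 missed the threshold.

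Tnrc6a (ENSMUSG00000052707, chr7:123123885-123195296, plus strand), the third GW182 scaffold, had 8 and 35 sorted insertions in the PTGR screen, 1.31 and 5.98 per 10000. Its unsorted PTGR libraries held 7 and 5 (0.30 and 0.92) and the TetR libraries 6, 10, 7 and 6 (0.34 to 0.48). Both sorted libraries were above all unsorted ones, but most of the sorted insertions came from replicate 2. The log2 odds ratio was 3.17 ± 0.31 (SE). With sorted replicate 1 alone it was 1.71 and the call was lost (Fisher's exact test, adjusted p = 0.138), while replicate 2 alone gave 3.90.

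Among the Argonautes, Ago2 (ENSMUSG00000036698, chr15:73095844-73184935, minus strand), the member known for slicing fully paired targets, was the most enriched. It had 22 and 50 insertions in the PTGR sorted libraries, 3.61 and 8.54 per 10000. All 6 unsorted libraries lay between 0.23 and 0.56 per 10000, with 13 and 3 insertions in the PTGR and 6, 9, 8 and 4 in the TetR libraries. The groups were far apart in spite of the spread between sorted replicates. The log2 odds ratio was 3.84 ± 0.28 (SE), with 3.10 and 4.34 for the replicates, each past the threshold. The edgeR change was 3.51 ± 0.44 (SE, adjusted p = 3.73e-13).

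Ago1 (ENSMUSG00000041530, chr4:126435012-126468583, minus strand), an Argonaute that silences without slicing, had 8 and 25 sorted insertions in the PTGR screen, 1.31 and 4.27 per 10000. The unsorted PTGR libraries held 9 and 5 (0.38 and 0.92) and the TetR unsorted libraries 8, 8, 9 and 13 (0.39 to 0.73). The lower sorted library was above the highest unsorted one by a small margin. The log2 odds ratio was 2.44 ± 0.32 (SE, Fisher's exact test, adjusted p = 1.69e-09). As for Tnrc6a, the call rested on sorted replicate 2: replicate 1 alone gave 1.37 (adjusted p = 0.231, Fisher's exact test) and replicate 2 alone 3.07. In edgeR without a filter on low counts the adjusted p of Ago1 was 0.0172, and in DESeq2 it was 0.379, with changes of 2.28 and 2.33. In the Cochran-Mantel-Haenszel test, which sets each sorted library against the unsorted PTGR library of the same number, the call of Ago1 was lost as well (2.04, adjusted p = 0.00313). The edgeR fit without a filter kept the call of Tnrc6a, at 2.86 (adjusted p = 6.62e-05). In DESeq2 Tnrc6a was not called, at 2.74 ± 1.21 (SE, DESeq2, adjusted p = 0.99996).

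Ago4 and Ago3, the remaining Argonautes that bind microRNAs, were not called. Ago4 (ENSMUSG00000042500, chr4:126489541-126533472, minus strand) had 6 and 1 sorted insertions, 0.98 and 0.17 per 10000, and the unsorted libraries ranged from 0.10 to 0.40. One sorted library was above that range and the other inside it. The log2 odds ratio was 1.10 ± 0.61 (SE, Fisher's exact test, adjusted p = 0.493), and replicate 2 alone gave -0.68. Ago3 (ENSMUSG00000028842, chr4:126331704-126429556, minus strand) had a single sorted insertion in replicate 1 and 0 in replicate 2, against 34 in the background. With fewer than 3 sorted insertions Ago3 was not tested. At the background rate 3.98 would fall in the sorted libraries, so a depletion of moderate size was not detectable at this depth. For enrichment, the upper limit of counting error was 0.466 per 10000 in sorted cells, against 0.333 in the background. The log2 odds ratio of Ago3, -1.99 ± 1.46 (SE), had an upper limit of 0.88, below the 1 needed for a call. These limits cover counting error alone and all exons of Ago3 together.

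**Figure D1:**
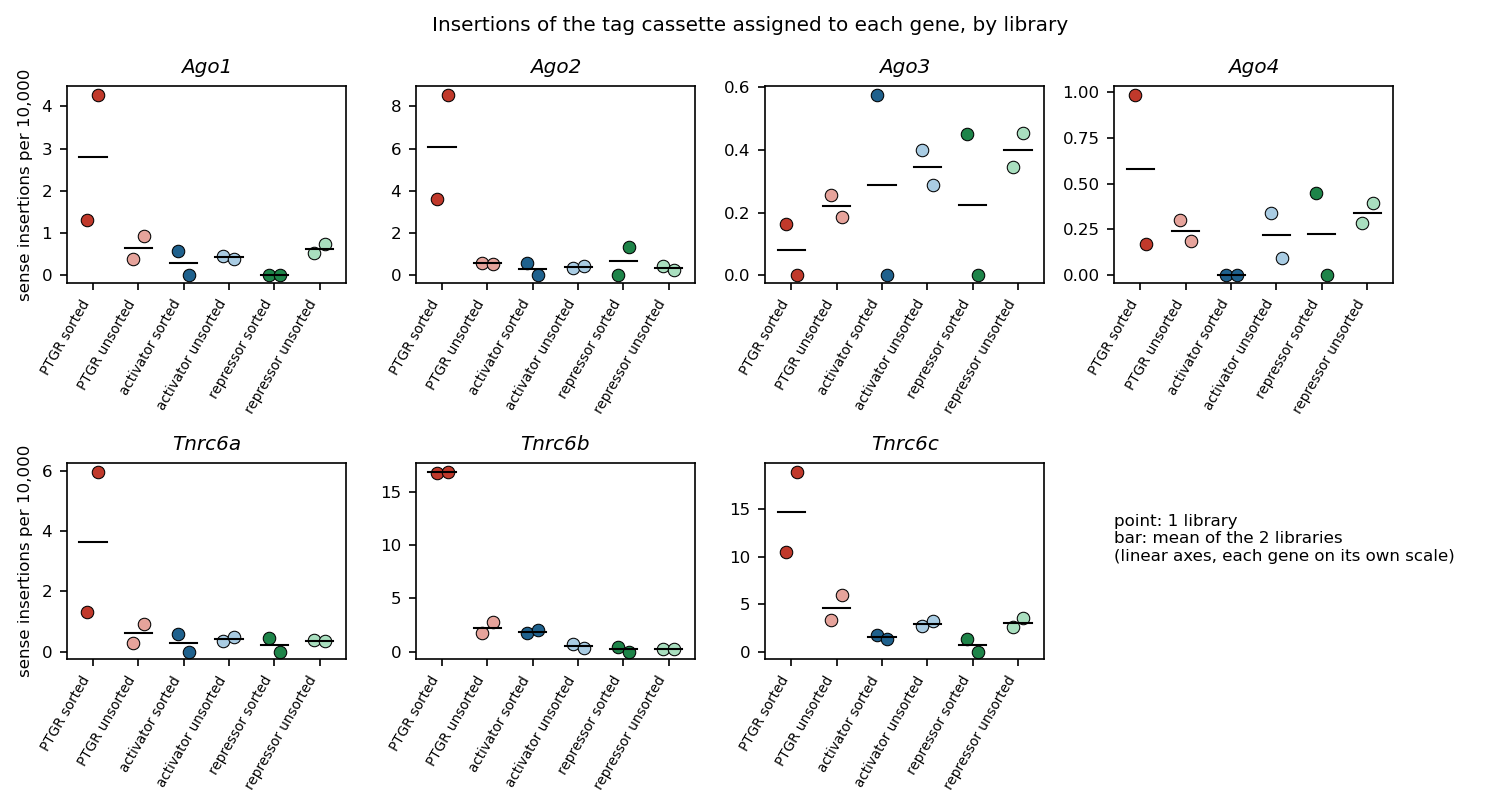
Sense insertions per 10000 positions (linear y axis, a scale of its own for each gene) in each of the 12 libraries, which fall into 6 groups on the x axis; a point is 1 library and a bar the mean of 2. Both PTGR sorted libraries lie above every unsorted library for Ago1, Ago2, Tnrc6a, Tnrc6b and Tnrc6c, and not for Ago3 or Ago4. The share of all genes with this order of libraries was not computed.

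By other routes to a call, the unsorted libraries of the PTGR screen alone as background called the same 5 members and 0.430% of the genes tested. Sorted replicate 1 alone called 3 members, Tnrc6b, Ago2 and Tnrc6c (0.758% of the genes tested), and replicate 2 alone all 5 (0.928%). edgeR called the 3 members that passed its filter on low counts (1.95% of the genes tested), again Tnrc6b, Ago2 and Tnrc6c, and DESeq2 called Tnrc6b and Ago2 of 5 tested (0.349%). The Cochran-Mantel-Haenszel test called 4 members, Tnrc6b, Ago2, Tnrc6a and Tnrc6c, and 0.419% of the genes tested.

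In order of the log2 odds ratio against all 6 unsorted libraries the members ran Tnrc6b, Ago2, Tnrc6a, Ago1, Tnrc6c, Ago4 and Ago3. No neighbours in this order differed beyond counting error, with a 95% interval of -0.16 to 1.16 for Tnrc6b over Ago2 and of -0.42 to 0.94 for Ago1 over Tnrc6c. Tnrc6b was above Tnrc6a by 1.17 (95% interval 0.46 to 1.89) and above Tnrc6c by 2.16 (1.71 to 2.61), and Ago2 was above Ago1 by 1.40 (0.57 to 2.23). Not all of these differences held with other choices. Against the unsorted PTGR libraries alone Ago2 came first (3.44), Tnrc6b (3.11) and Tnrc6a (3.11) differed by 0.0041 with an interval from -1.01 to 1.02, and Ago2 was above Ago1 by 0.93 (-0.26 to 2.13). Tnrc6b stayed above Tnrc6c there, by 1.17 (0.63 to 1.72). Within 50 kb the order was Ago2 (4.22), Tnrc6b (3.96), Tnrc6c (3.75), Tnrc6a (3.50) and Ago1 (2.43), and Tnrc6b over Tnrc6c had an interval from -0.47 to 0.89. Ago2 also had a higher point value than Tnrc6b in edgeR (3.51 and 3.13) and DESeq2 (3.47 and 3.05). Ago2 was above Ago4 in all 3 comparisons of odds ratios, by 2.74 (1.43 to 4.06) against all 6 unsorted libraries, by 2.36 (0.70 to 4.02) against those of the PTGR screen and by 2.62 (1.02 to 4.22) within 50 kb. These intervals leave out the spread between replicates, which for Ago1, Ago2, Ago4 and Tnrc6a was over 1 on the log2 scale.

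With the TetR tag the members were not called in either screen. In the activator screen the sorted libraries held 15 member insertions, 0.0467% of the total, and in the repressor screen 9, or 0.0240%, against 0.0601% in the background. Tnrc6b had 3 and 3 in the activator sorted libraries, 1.72 and 2.04 per 10000, above the 0.68 and 0.39 of the unsorted libraries of that screen and near the PTGR unsorted ones. Its log2 odds ratio of 1.17 ± 0.61 (SE) did not pass Fisher's exact test (adjusted p = 0.581). Tnrc6c had 3 and 2 in the activator and 3 and 0 in the repressor sorted libraries, with log2 odds ratios of -1.06 ± 0.65 and -2.02 ± 0.84 (SE). The other members had at most 2 insertions in either screen and were not tested. Ago4 had 0 in the activator and Ago1 0 in the repressor sorted libraries, where a count of 0 allows up to 0.935 and 0.801 per 10000, more than their levels in the background (0.27 and 0.51). Of the genes tested, 4.64% were called in the activator and 8.18% in the repressor screen, and 0 of 2 and 0 of 1 members.

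**Figure D2:**
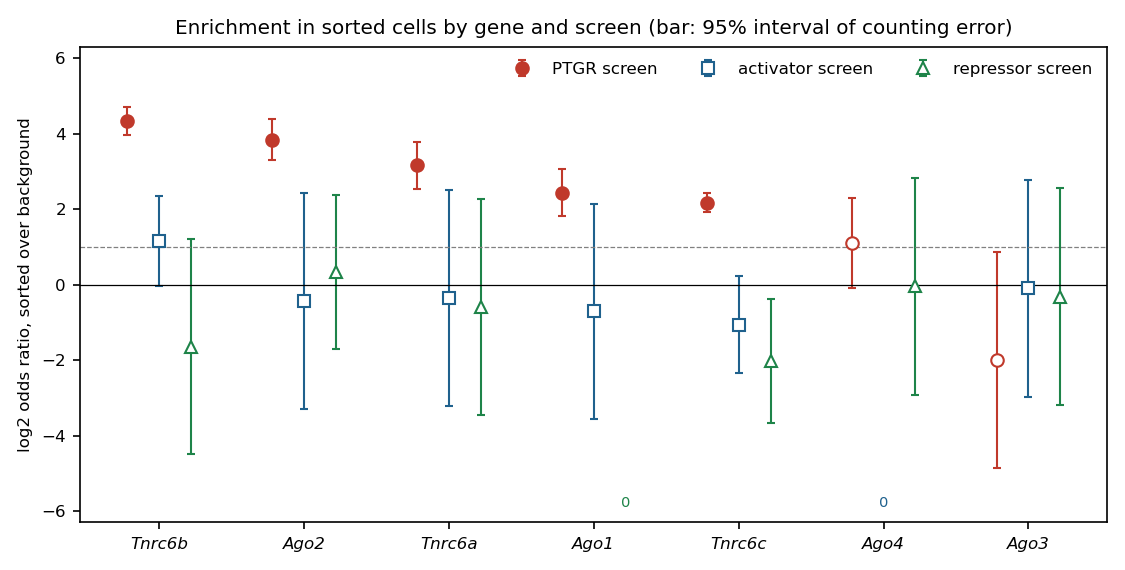
Log2 odds ratio of sorted against background insertions for each gene (x axis) in the 3 screens, with 95% intervals of counting error; filled points passed the call rule, the dashed line marks a log2 odds ratio of 1, and a coloured 0 marks a sorted count of 0. The 5 filled points are all of the PTGR screen, and every interval of the other screens except that of Tnrc6c in the repressor screen includes 0.

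The difference between screens was tested in edgeR on all 12 libraries, as the sorted-to-unsorted change in the PTGR screen minus that in another screen. After the filter on low counts 2569 genes and 3 members remained. Tnrc6c changed more in the PTGR screen than in the activator screen, by 2.46 ± 0.66 on the log2 scale (SE, edgeR, adjusted p = 0.0120), and more than in the repressor screen, by 3.00 ± 0.75 (adjusted p = 0.00334). Of all genes tested, 0.584% and 0.895% were higher in this sense. Tnrc6b differed by 0.98 ± 0.74 and 2.28 ± 1.33 and Ago2 by 3.47 ± 1.39 and 2.03 ± 1.26, and neither passed (edgeR, adjusted p between 0.250 and 0.775). The median gene stood at 0.27 and 0.36, and at 0.82 and 1.53 without TMM scaling. In that scaling the difference from the repressor screen passed for Ago2 (3.19) and Tnrc6b (3.42). The tag, the reporter, the CreERT2 transgene and the number of sorts differ between these screens as well as the assay, and these cannot be told apart.

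Splicing needs cassette and gene on one strand, which makes insertions that point the other way a control. Assigned with the strand reversed, no member was called in any screen, beside 0.500% of the genes tested in the PTGR, 3.14% in the activator and 5.61% in the repressor screen. Tnrc6a was the highest, with 10 sorted and 29 background insertions and an enrichment of 1.57 ± 0.53 on the log2 scale (SE, Fisher's exact test, adjusted p = 0.175). Tnrc6c had 42 and 313 such insertions, a log2 odds ratio of 0.21, and Tnrc6b 6 and 36 (0.52). Sense insertions made up 97.1% (95% Wilson interval 93.8 to 98.7) of the sorted insertions assigned to Tnrc6b in either strand, against 70.2% (61.6 to 77.7) in the background. The sorted and background shares were 80.6% (74.9 to 85.3) and 51.4% for Tnrc6c, 93.5% and 64.2% for Ago2, 89.2% (75.3 to 95.7) and 46.4% for Ago1, and 81.1% and 58.6% for Tnrc6a. For these 5 genes each sorted replicate was above the background share, and the share of all genes with this order was not computed. In sorted replicate 1 Ago1 and Tnrc6a each had 8 of 12 (66.7%, 39.1 to 86.2). That interval overlaps those of their backgrounds (37.5 to 55.6 and 46.9 to 69.4). In the PTGR unsorted libraries alone the share of Tnrc6b was 84.8% (74.3 to 91.6). For Ago4 the sorted share was 77.8% (7 of 9) against 53.8% in the background.

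**Figure D3:**
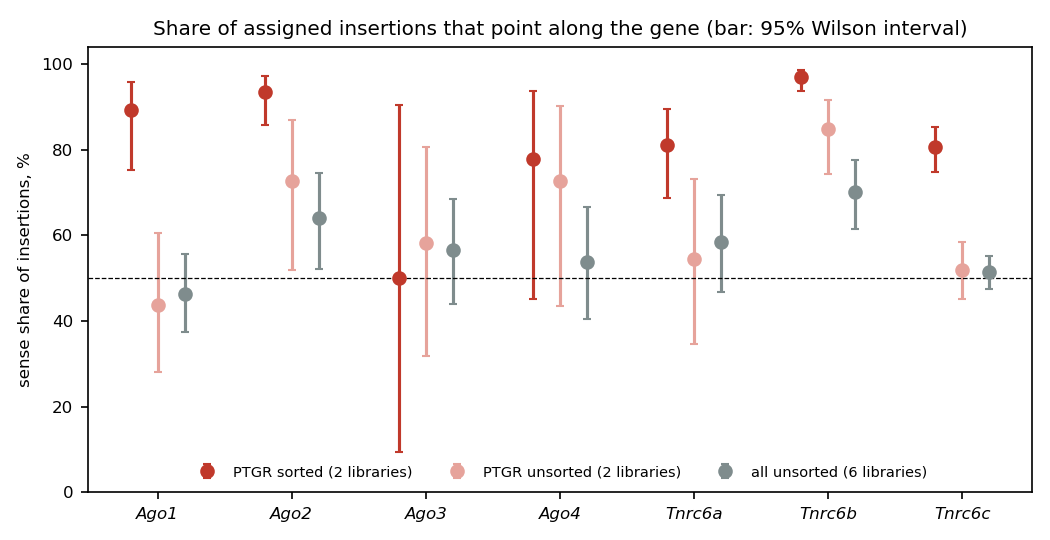
Share of all insertions assigned to a gene, on either strand, that point along it (y axis, %) in the PTGR sorted, PTGR unsorted and all 6 unsorted libraries, with 95% Wilson intervals; the dashed line marks 50%. Sorted values are 97.1% for Tnrc6b, 93.5% for Ago2 and 89.2% for Ago1, and for Ago3, Ago4 and Tnrc6a the sorted interval overlaps that of all 6 unsorted libraries.

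By assigned exon, the PTGR sorted insertions of Ago1, Ago2 and Tnrc6c were almost all at exon 2 (97.0%, 100% and 94.3%) and those of Tnrc6b mainly at exon 5. In the background exon 2 took 97.7% of the Ago2 and 97.3% of the Tnrc6c insertions, and 75.0% (95% Wilson interval 61.8 to 84.8) of those of Ago1. The fusion transcripts were not measured in these libraries, so an exon names the next acceptor and not the one used. The same Fisher's exact test per gene and exon called 0.846% of the 9575 pairs tested and 8 pairs of the members. At exon 2, Ago2 had 72 sorted and 42 background insertions (log2 odds ratio 3.87 ± 0.28, SE), Ago1 had 32 and 39 (2.81 ± 0.34), and Tnrc6c had 165 and 322 (2.13 ± 0.14). Per the study's methods, cassettes for each reading frame were mixed in equal parts, and the frame of each insertion was not assessed here. The parts of a protein given here and below hold only for fusions in frame. Such fusions at these acceptors would keep 99.1% of the 860 residues of Ago2 and 99.0% of the 857 of Ago1. For Tnrc6c they would keep the whole protein of 1900 residues, whose start codon lies in exon 2. Tnrc6a had 33 sorted and 40 background insertions at exon 2 (2.82 ± 0.34), which keeps 99.9% of 1896 residues. At exon 3, which keeps 99.1%, Tnrc6a had 7 sorted insertions (2 and 5 in the replicates) and 0 in the background, at least 20.0-fold higher when the background is set to 3 counts over its 6 libraries.

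In Tnrc6b exons 4, 5 and 15 were called. Exon 5 took 162 of the 201 sorted insertions, 80.6%, with 78 and 84 in the replicates, and 50 of the 85 in the background (log2 odds ratio 4.79 ± 0.23, SE). A fusion there begins at residue 39 of 1810 and keeps 97.9% of the protein. Exon 4, at residue 16, took 11 sorted and 5 background insertions (4.23 ± 0.78), with 7 and 4 in the replicates. Exon 15 took 18 sorted insertions, 10 and 8 in the replicates, and 5 in the background (4.94 ± 0.73). A fusion at exon 15 begins at residue 1210 and keeps 33.2% of the coding sequence. Such a fusion holds the C-terminal part of the protein and lacks what lies before it.

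Downstream of exon 15 no sorted insertion was found. Exon 16 or later took 0 of 201 sorted insertions, which allows a share of up to 1.49%, and 11 of 85 in the background, 12.9% (95% Wilson interval 7.38 to 21.7). The same share was 12.5% (7 of 56) in the PTGR unsorted and 13.8% (4 of 29) in the TetR unsorted libraries. The acceptors at issue were exons 16, 18 and 22 with 2, 4 and 5 background insertions. Fusions at exons 16, 18 and 22 keep 30.8%, 25.4% and 15.1% of the coding sequence. Exon 2 took 1 of 201 sorted insertions (0.498%) and 12 of 85 in the background (14.1%). These groupings of exons were made after their counts were seen, so they carry no test.

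Within the background, exon 2 of Tnrc6b took 11 of 29 insertions (37.9%) in the TetR libraries and 1 of 56 in the PTGR libraries. Exon 5 took 24.1% of the former and 76.8% of the latter. The share of Tnrc6b insertions at exon 4 or later was 98.5% (95% Wilson interval 95.7 to 99.5) in sorted cells and 85.9% (76.9 to 91.7) in the background, a difference that passed a two-sided Fisher's exact test over 3585 genes (adjusted p = 0.0232), as did 0.279% of those genes. Without sorted replicate 1 or 2 it was no longer past the threshold (exact test, adjusted p of 0.0981 and 0.171). Against the PTGR unsorted libraries alone the difference was 0.293 percentage points, with an adjusted p of 1 in the same exact test. Of the 12 background insertions before exon 4, 11 were thus from TetR and 1 from PTGR cells.

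In Ago1, exon 4 or later took 0 of 33 sorted and 7 of 52 background insertions (13.5%), and this did not pass after adjustment (exact test, adjusted p = 1). The other members with at least 10 insertions in both groups, Ago2, Tnrc6a and Tnrc6c, differed by -2.33 to 4.54 percentage points with an adjusted p of 1 in the exact test. Tnrc6a had single sorted insertions at exons 6, 7 and 8, and Tnrc6c had 9 at exon 4 or later.

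Ago3 stood apart in where it was hit before sorting. Of its 34 background insertions 20 were assigned to exon 13, where a fusion begins at residue 532 of 860 and keeps 38.3% of the coding sequence, and 11 to exon 2. Insertions that keep under 50% of the coding sequence made up 67.6% of its background (23 of 34), against 9.62% for Ago1, 17.9% for Ago4 and 20.0% for Tnrc6b. The only PTGR sorted insertion of Ago3 was at exon 13. Ago4 had 5 sorted and 21 background insertions at exon 2 (log2 odds ratio 1.03, Fisher's exact test, adjusted p = 0.588). Ago3, Ago1 and Ago4 lie side by side on chromosome 4 in this order and on the same strand, so an insertion upstream of Ago3 is limited by Ago1, which ends 5456 bp away. Ago4 has 182534 bp before its next upstream neighbour, and Ago1 20958 bp.

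Positions along the genes were compared as descriptions, in classes chosen after the data were seen. All 201 sorted insertions of Tnrc6b were in introns. The densest 5 kb lay in intron 4, from 84713 to 89712 bp after the annotated gene start (chr15:80796026-80801025), and held 111 of them, 55.2% (95% Wilson interval 48.3 to 61.9). It held 53 of 102 and 58 of 99 in the replicates, 29 of 56 in PTGR unsorted cells (51.8%) and 7 of 29 in TetR unsorted cells (24.1%). A shorter Tnrc6b transcript with a retained intron starts in this window, 87329 bp from the gene start. Leaving the window out, 90 sorted and 49 background insertions gave a log2 odds ratio of 3.97 ± 0.26 (SE), so the enrichment was not limited to it.

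**Figure D4:**
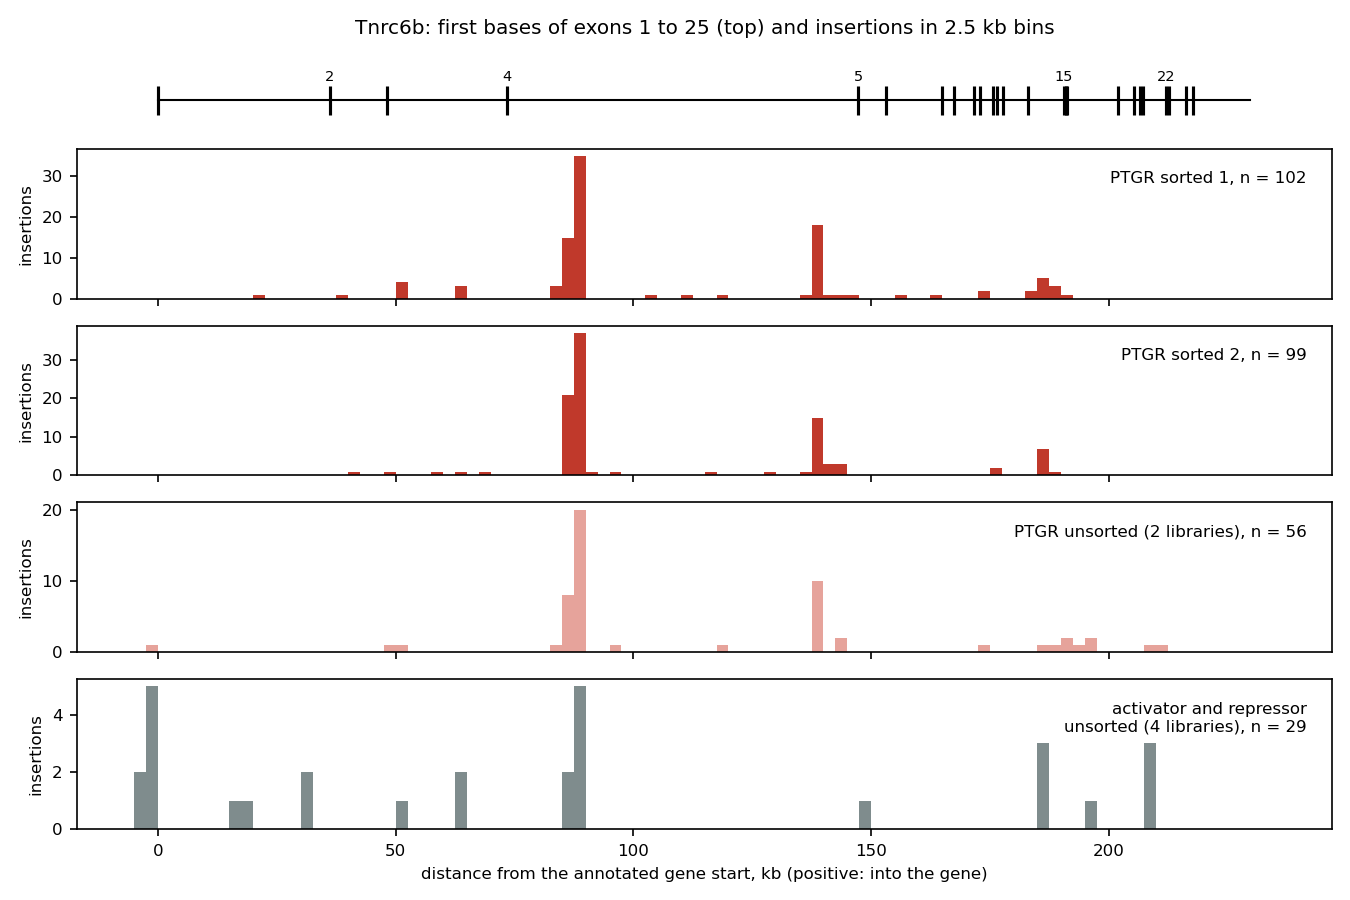
Insertions in Tnrc6b per 2.5 kb bin (y axis, count) by distance from the annotated gene start (x axis, kb) in PTGR sorted replicates 1 and 2, the PTGR unsorted and the activator and repressor unsorted libraries, below the first bases of its 25 exons. Sorted insertions of both replicates gather before exon 5 and, in a smaller group, before exon 15, and none lies past exon 15, where unsorted libraries have insertions.

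Some positions in Tnrc6b were found in more than 1 library. Of the 56 PTGR unsorted insertions 29 (51.8%) were at a position also found in a PTGR sorted library, against 5.92% over all genes. The share was 12 of 15 in unsorted replicate 2 and 17 of 41 in replicate 1. For Tnrc6c it was 32 of 110 (29.1%), for Ago1 4 of 14, for Ago2 5 of 16, for Tnrc6a 4 of 12 and for Ago3 and Ago4 0 of 7 and 0 of 8. With every position found in more than 1 library left out, the same 5 members were called, and the log2 odds ratio of Tnrc6b was 4.86 ± 0.24 (SE). Only 29 of its 191 PTGR sorted positions were also in PTGR unsorted cells. The filter thus took a larger part of the unsorted than of the sorted positions, so this value is no check on the size of the enrichment.

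In Tnrc6c, Tnrc6a and Ago2 insertions lay mostly upstream of the gene. For Tnrc6c 47.4% of sorted insertions (95% Wilson interval 40.2 to 54.8), 45.3% and 48.6% in the replicates, lay within 5 kb of the gene start, and 16.0% (12.5 to 20.3) in the background. The share more than 5 kb upstream was 38.9% in sorted cells and 78.5% in the background. For Tnrc6a the median insertion lay at -712 bp from the gene start in sorted cells and at -29581 bp in the background, and the share upstream of the gene was 67.4% (52.5 to 79.5) and 92.7% (80.6 to 97.5). In both genes the summed sorted insertions lay nearer to the start than background ones. For Tnrc6a the median was -12750 bp in sorted replicate 1 (8 insertions) and -712 bp in replicate 2 (35 insertions). In PTGR unsorted cells alone it was -16963.5 bp, and the share upstream, 83.3% (55.2 to 95.3), had an interval that overlaps the sorted one. Ago2 showed no such shift, with 83.3% upstream in sorted cells and 83.7% in the background. Of the Ago1 insertions 97.0% lay within 5 kb of the gene start in sorted cells and 78.8% in the background. Only insertions within 10 kb of the assigned exon gave log2 odds ratios of 3.02 for Tnrc6c and 5.02 for Ago2 that no longer passed (Fisher's exact test, adjusted p of 0.00117 and 0.0324). Within that distance 3 members were called, and 48 of the 3650 genes tested. The median sorted insertion lay 49191 bp from the assigned exon for Tnrc6c and 43658 bp for Ago2. The limit of 10 kb thus left out most sorted insertions of these genes.

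**Figure D5:**
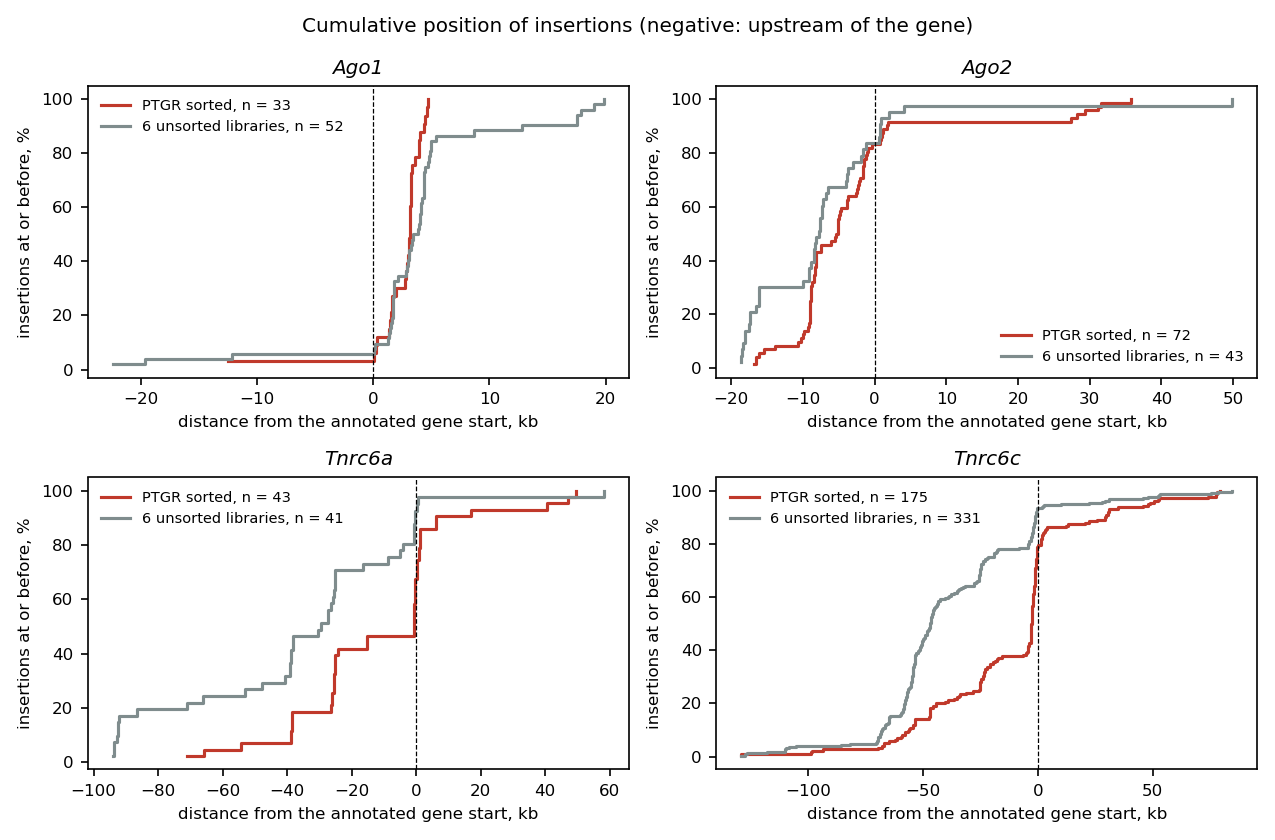
Cumulative share of insertions (y axis, %) by distance from the annotated gene start (x axis, kb, negative upstream) for Ago1, Ago2, Tnrc6a and Tnrc6c in PTGR sorted and in all 6 unsorted libraries. The sorted line of Tnrc6c climbs steeply just before the start, where 47.4% of sorted and 16.0% of unsorted insertions lie within 5 kb, and that of Tnrc6a runs below the unsorted one upstream of the gene.

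Other genes of the pathway were described from lists of known factors. These lists were chosen with earlier results of these data known, so their counts are descriptions and carry no test. Among factors that GW182 proteins recruit, 5 of the 18 tested (of 20) were called in the PTGR screen, with a median log2 odds ratio of 0.97, beside 0.666% and a median of 0.14 over all genes tested. These were Cnot9, Cnot3 and Cnot2, subunits of the CCR4-NOT deadenylase, at 4.27, 3.87 and 3.65, Eif4enif1, the 4E-T protein that links decay to cap-bound eIF4E, at 2.31, and Pan3, the partner of the Pan2 deadenylase, at 2.23. Pabpc1, the main cytoplasmic poly(A)-binding protein, and the helicase Ddx6, the 2 of the list with the most background insertions, stood at -0.49 and -0.48. Of 9 Argonaute partners and turnover factors 8 were tested and 1 was called, Trim71, a stem cell RNA-binding protein, at 2.82 ± 0.12 (SE), and the chaperone Hsp90aa1 stood at -0.04. Neither of the 2 tested of 6 microRNA processing genes was called, with Drosha, the nuclear microRNA processing nuclease, at -0.46. Its partner Dgcr8, with 2 sorted and 37 background insertions, was not tested. Of the 3 PIWI-clade Argonautes, which bind germline small RNAs, only Piwil1 was tested, at 0.48, and it was not called, while Piwil4 had 2 sorted and 9 background insertions. No gene of these lists was called in the activator or repressor screen, where 4.64% and 8.18% of the genes tested were.

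The genes whose levels over the 12 libraries were most like those of Tnrc6b, among 3587 genes with at least 10 PTGR sorted insertions, were Optn, Trim26, Virma, Rnf219 and Cnot9, with Pearson correlations of 0.955, 0.921, 0.919, 0.906 and 0.891. The libraries share screens and depth, so these values are descriptions. Tnrc6c ranked 37 on this scale (0.793), Tnrc6a 41 (0.774), Ago1 52 (0.742) and Ago2 58 (0.731).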

How the data were processed

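The members and the gene lists were chosen with earlier results of these data known. Insertions were mapped in 12 libraries of mouse embryonic stem cells, 2 per group. The authors trimmed reads with Trim Galore (0.6.0, per the submitters' processing notes), aligned them to mm10 with Bowtie2, filtered them with SAMtools (1.9), and gave each insertion the next exon downstream in a protein-coding transcript, leaving out first exons. The deposited lists hold 1 line per insertion and no read number, so the deposited values are insertions, counted here per gene. The authors also deposited insertion counts summed over libraries, which were not used as input, and their own log2 odds ratios, adjusted p-values and hit calls, which were not used.

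Each position (chromosome, coordinate, strand) was counted once per library, because 12.7% of positions in PTGR sorted replicate 2 and 100% in the repressor unsorted libraries were listed more than once. Insertions up to 200 kb from the exon were kept. Sorted libraries were summed and compared with all 6 unsorted libraries, gene by gene, with Fisher's exact test (one-sided), as in the study's methods, adjusted by the Benjamini-Hochberg method over all genes with at least 3 sorted insertions. Tests of exon use, of reversed insertions and of the difference between screens are as described with the results. Odds ratios had no value added. edgeR (4.0.16) and DESeq2 (1.42.0) in R (4.3.3) were alternatives, on 2 sorted against 2 unsorted libraries. Counting and Fisher's exact tests ran in Python (3.11.15) with scipy (1.17.1). The scripts were tested on simulated data. The labels do not say whether replicates came from separate cultures. The paper describes 2 biological replicates per screen and 6 independent transductions. P-values from edgeR and DESeq2 measure the spread between these libraries. An exact permutation test of 2 against 2 libraries cannot reach the threshold of 0.05, and none was run.

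Exons, coding positions and splice acceptors were taken from GENCODE vM21 on GRCm38. Every insertion of the members matched the start of an exon of these models. Coding positions refer to 1 transcript per gene that carries these exons. Intervals and limits from a count of 0 (taken as up to 3 counts) cover counting error only. The text names all 7 members, the called genes and the 2 with the most background insertions of each pathway list, and the 5 genes with the pattern most like Tnrc6b. Alternatives covered the background, the test, filters, distance, duplicate positions, replicates and scaling. The lower threshold for edgeR and DESeq2 and the background of only the 4 TetR unsorted libraries were chosen after seeing the data.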

Additional observations from a re-analysis of the deposited data

Results flagged for a closer look

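Tnrc6a was higher in PTGR unsorted replicate 2, at 0.924 insertions per 10000 (5 insertions), than in the other 5 unsorted libraries, of which the next stood at 0.482, a gap of 0.708 of the whole range. Tnrc6c was likewise highest in PTGR unsorted replicate 2, at 5.92 per 10000 (32 insertions) with the next library at 3.50, a gap of 0.736 of the range. Both gaps exceed Dixon's critical value for 6 libraries, which chance passes in about 1 in 20 groups. PTGR unsorted replicate 2 is the smallest unsorted library, and its part in these values was not tested.

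The change of Tnrc6c on sorting differed between screens in edgeR's test of the difference. It was larger in the PTGR screen than in the activator screen by 2.46 on the log2 scale (adjusted p = 0.0120) and larger than in the repressor screen by 3.00 (adjusted p = 0.00334).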

How the results depend on the processing

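With 62 genes called in the PTGR screen, the count was 40 with the unsorted libraries of that screen alone, 39 with the Cochran-Mantel-Haenszel test, 33 in edgeR, 27 in edgeR without a filter, 15 in DESeq2 and 121 at an adjusted p below 0.05. At this lower threshold, added after seeing the data, edgeR called 38, edgeR without a filter 34 and DESeq2 27. In the repressor screen edgeR without a filter called 0 genes (74 at 0.05), and Fisher's exact test 192. With a replicate block edgeR called 31 PTGR genes (38 at 0.05) and the same 3 members as without it. Replicate numbers are not said to mark a batch. Per the study's methods the unsorted cells were taken from a transduced culture before sorting, and in the PTGR screen each sorted library shared more positions with the unsorted library of its own number (19.5% and 6.98%) than with the other (0.397% and 1.93%). In the repressor screen sorted replicate 1 shared more with unsorted replicate 2 than with replicate 1. With 2 pairs per screen the differences between replicates correlated across genes at 0.263 (PTGR), 0.0566 (activator) and 0.00647 (repressor). Members called in the PTGR screen, 5 in the main test, numbered 3 in edgeR with or without the filter, 2 in DESeq2 (3 at 0.05) and 3 within 10 kb, and 3 to 5 on leaving out each library, the lowest without PTGR sorted replicate 2. edgeR's filter removed Ago1, Ago3, Ago4 and Tnrc6a, so no value was had for them there.

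Calls were lost for Ago1 in DESeq2 (2.33), edgeR without a filter (2.28, regained at 0.05) and the Cochran-Mantel-Haenszel test (2.04), for Tnrc6a in DESeq2 (2.74), for Tnrc6c in DESeq2 (1.79), edgeR without a filter (1.69) and within 10 kb (3.02), and for Ago2 within 10 kb (5.02). Leaving out each library in turn, the log2 odds ratio ranged from 1.37 to 3.07 for Ago1, 1.71 to 3.90 for Tnrc6a and -0.68 to 1.84 for Ago4, and for Ago4 exon 2 from -0.27 to 1.67. The direction of Tnrc6c turned in the activator screen within 10 kb (1.29). For reversed insertions it turned for Tnrc6c with the background of the same screen (-0.0093), within 50 kb (-0.94) and within 10 kb (-0.11), and leaving out libraries gave -0.044 to 0.91 for Tnrc6b, -0.92 to 0.18 for Ago1 and -0.50 to 1.54 for Ago2.

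Gene and exon pairs called fell from 81 to 48 with the background of the same screen, and those of members from 8 to 4 within 10 kb and to 5 to 7 without a sorted replicate. Genes differing in exon use numbered 10, but 4 within 10 kb, 26 with every listed line and 3 with the background of the same screen. The Tnrc6b difference at exon 4 or later, 12.6 points, lost significance at 3.24 points within 10 kb, 11.6 with positions within 10 bp merged, 0.293 with the background of the same screen and 12.2 to 13.1 without a sorted replicate. That of Tnrc6c turned to -3.70 within 50 kb and that of Tnrc6a to -1.36 with the background of the same screen. Without TMM the PTGR minus repressor difference passed for Ago2 (3.19) and Tnrc6b (3.42). Where no reason follows from the setting itself, the cause was not tested. In the sorted activator and repressor libraries 5 and 6 of the 7 members had fewer than 3 insertions and were not tested.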

Other observations

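The few insertions of the members in sorted TetR cells are given by exon, with no test. The 6 Tnrc6b insertions of the activator sorted libraries fell at exon 15 (2 in replicate 1), exon 5 (1 in replicate 1), and exons 4, 18 and 20 (1 each in replicate 2). The 4 TetR unsorted libraries of Tnrc6b had 3 insertions at exon 15 and 4 at exon 16 or later among 29. Both Ago2 insertions of the repressor sorted libraries were in replicate 2 and at exon 13, an exon that took no Ago2 insertion in the 6 unsorted or the PTGR sorted libraries.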
